A study of Mus musculus with 9 samples.

Results

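The 10 genes described here are core genes of steroid production in Leydig cells, and Insl3, a hormone gene of these cells. Leydig cells are the androgen-producing cells between the seminiferous tubules of the testis. The genes were taken by name: Star, Cyp11a1, Hsd3b1, Hsd3b6, Cyp17a1, Hsd17b3, Insl3, Lhcgr, Nr5a1 and Fdx1. They are 10 of the 32035 genes with a value in the study, and all 10 passed the filter on low counts in each comparison.

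RNA of whole testes from male mice aged 15 weeks was sequenced, with 3 libraries in each of 3 groups. All animals had the C57Bl6/N background. WT mice carried the intact Kpna6 gene, which encodes the nuclear import receptor importin α7. Kpna6 ΔIBB/ΔIBB mice, α7ΔIBB/ΔIBB in the labels, lack exon 2, so that a shortened mRNA gives a truncated protein without the domain that binds importin β. Kpna6-/- mice, Importin α7-/- in the labels, carry a gene trap in intron 1. According to the study, a testis-specific first exon downstream of this trap still gives full-length protein in germ cells of Kpna6-/- mice, so these testes are no complete knockout. The labels number the replicates without naming animals, and the P-values therefore measure the spread between these samples.

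Leydig cells take up the signal of luteinizing hormone through the receptor LHCGR, which raises cAMP and leads STAR to move cholesterol into mitochondria. There CYP11A1, with electrons passed on by the ferredoxin FDX1, cuts cholesterol to pregnenolone. HSD3B enzymes, CYP17A1 and HSD17B3 then turn pregnenolone into testosterone, and the nuclear receptor NR5A1 activates the genes of most of these steps. INSL3 is a peptide hormone of the same cells that is made independently of the steroid pathway.

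Between 24859751 and 31484692 estimated counts per library fell on genes. Kpna6 was at 98.3, 163 and 176 TPM (a read share per transcript length, scaled to the same total in every library) in WT, at 31.96, 34.2 and 34.8 TPM in Kpna6 ΔIBB/ΔIBB and at 134, 137 and 141 TPM in Kpna6-/- testes. The targeted gene was thus low in each library of the Kpna6 ΔIBB/ΔIBB group (log2 fold change -1.79, SE 0.15), whereas the Kpna6-/- libraries lay between the WT libraries. Leydig cell RNA was present in every library: Insl3 alone reached 1599 TPM or more. The adrenal marker Mc2r, the receptor of adrenocorticotropin, had a mean of 0.0358 TPM over the 9 libraries. A pair of libraries stood apart. WT replicate 2 was the lowest of all for 7 of the 10 members by normalised counts, and by TPM for Nr5a1 as well. Kpna6 ΔIBB/ΔIBB replicate 3 held 192 TPM of epididymal markers. Calls of members that change without either are given both ways.

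Hsd3b1 and Hsd3b6 encode isoforms of the same enzyme and lie close to each other on chromosome 3, so that reads of the pair could be confused. Over the 1119 coding bases of their main transcripts, 1007 (90.0%) were identical. The first 150 bases of the last coding exon show how the differences are spread, read 5′ to 3′ on the minus strand of GRCm38, with the 14 differing bases in capitals. The stretch lies at chr3:98853214-98853363 for Hsd3b1 and at chr3:98806522-98806671 for Hsd3b6.
Hsd3b1: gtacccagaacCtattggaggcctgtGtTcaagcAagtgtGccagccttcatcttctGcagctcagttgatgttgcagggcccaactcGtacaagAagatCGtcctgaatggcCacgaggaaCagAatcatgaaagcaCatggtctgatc
Hsd3b6: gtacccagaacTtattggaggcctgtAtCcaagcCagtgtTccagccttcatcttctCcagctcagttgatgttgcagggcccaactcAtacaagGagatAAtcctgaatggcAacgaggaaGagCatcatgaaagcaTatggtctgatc
Reads of either gene could be told apart at most positions. Of all 31-base words in the transcripts of Hsd3b1, 87.0% occurred in no other gene of the files, and of those of Hsd3b6 71.0%; the pair shared 107 such words. The paralogues Hsd3b2, Hsd3b3, Hsd3b4 and Hsd3b5 stayed at or below 1.504 TPM in every library.

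Insl3 lies inside the span of the kinase gene Jak3 on the same strand, and 374 of its 593 words of this length also occur in Jak3 transcripts. Jak3 ranged from 2.604 to 5.83 TPM, against at least 1599 TPM for Insl3. Unique words made up at least 99.3% in each of the other 7 members.

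The promoters of 7 of the 10 members could be matched to RefSeq windows on GRCm38.p6. The 250 bases upstream of the RefSeq start were searched on both strands for AGGTCA, the hexamer bound by NR5A1, and for AGATAA, a site of GATA factors. AGGTCA occurs in 14.02% of all 32851 promoter windows of this length, and 2 of the 7 members had it, Cyp11a1 at 28 and Lhcgr at 122 bases before the start. AGATAA occurs in 9.988% of the windows and was found in Hsd3b1 at 134 and in Hsd3b6 at 31 bases before the start, on opposite strands. The 4 windows with a match are printed, with the matched letters in capitals. Cyp11a1 has a pair of windows, of which the one further upstream, chr9:57997774-57998023, held no match, and the one printed lies within the gene span of GENCODE M21. The Cyp11a1 window is chr9:58014702-58014951 on the plus strand. The others lie on the minus strand, at chr17:88792015-88792264 for Lhcgr, chr3:98859795-98860044 for Hsd3b1 and chr3:98814444-98814693 for Hsd3b6.
Cyp11a1: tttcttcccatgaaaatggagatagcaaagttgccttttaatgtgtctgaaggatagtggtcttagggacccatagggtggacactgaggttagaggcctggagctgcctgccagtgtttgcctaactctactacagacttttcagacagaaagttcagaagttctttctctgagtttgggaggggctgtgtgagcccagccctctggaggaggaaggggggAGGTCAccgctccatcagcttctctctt
Lhcgr: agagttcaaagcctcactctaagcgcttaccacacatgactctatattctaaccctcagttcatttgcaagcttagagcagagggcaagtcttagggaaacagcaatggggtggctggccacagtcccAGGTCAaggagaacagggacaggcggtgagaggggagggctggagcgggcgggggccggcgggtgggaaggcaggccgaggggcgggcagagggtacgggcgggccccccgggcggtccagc
Hsd3b1: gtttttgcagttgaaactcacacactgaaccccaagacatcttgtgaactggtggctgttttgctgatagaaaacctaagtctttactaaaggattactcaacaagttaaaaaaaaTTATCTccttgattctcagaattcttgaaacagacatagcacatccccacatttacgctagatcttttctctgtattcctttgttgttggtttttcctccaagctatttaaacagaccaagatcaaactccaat
Hsd3b6: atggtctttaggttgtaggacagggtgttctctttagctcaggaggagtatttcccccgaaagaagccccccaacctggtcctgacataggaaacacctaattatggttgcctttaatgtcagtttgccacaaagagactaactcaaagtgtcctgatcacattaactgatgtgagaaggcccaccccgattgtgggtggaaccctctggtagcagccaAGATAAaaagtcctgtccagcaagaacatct
A match of letters is a description of the window and says nothing about binding in these testes.

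Lhcgr, the receptor of luteinizing hormone (chr17:88716481-88791990 in GRCm38, the build of all gene positions given here), was the least abundant member. It was at 4.51, 1.62 and 3.03 TPM in WT, at 5.66, 6.40 and 6.68 TPM in Kpna6 ΔIBB/ΔIBB and at 4.69, 4.01 and 3.76 TPM in Kpna6-/- testes. All 3 Kpna6 ΔIBB/ΔIBB libraries lay above the 6 others, and the WT and Kpna6-/- libraries overlapped. Nr5a1, which encodes the regulator of steroidogenic genes and is also expressed in Sertoli cells (chr2:38692656-38714542), was at 16.2, 15.7 and 16.0 TPM in WT testes. It was at 24.4, 23.0 and 20.4 TPM in Kpna6 ΔIBB/ΔIBB and at 18.1, 19.2 and 18.5 TPM in Kpna6-/- testes. On this scale the groups did not overlap, in the order WT, Kpna6-/- and Kpna6 ΔIBB/ΔIBB. In normalised counts the lines overlapped with each other, and neither overlapped with WT.

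Star, which brings cholesterol to the first enzyme (chr8:25806555-25815982), was at 33.5, 7.95 and 27.4 TPM in WT, at 33.0, 23.3 and 14.5 TPM in Kpna6 ΔIBB/ΔIBB and at 36.9, 26.5 and 23.5 TPM in Kpna6-/- testes. The groups overlapped, and 1 WT library held less than any mutant library. The side-chain cleavage enzyme gene Cyp11a1 (chr9:58006411-58027023) was at 107, 44.8 and 91.8 TPM in WT, at 93.9, 111 and 97.3 TPM in Kpna6 ΔIBB/ΔIBB and at 99.0, 79.2 and 74.8 TPM in Kpna6-/- testes. The same WT library, replicate 2, was again the lowest. Its electron donor gene Fdx1 (chr9:51943306-51963556) had a CV (coefficient of variation) of 14.7% in WT, second lowest after Nr5a1 with 1.58%. Fdx1 was at 83.4, 62.4 and 78.6 TPM in WT, at 80.7, 74.5 and 76.9 TPM in Kpna6 ΔIBB/ΔIBB and at 77.3, 72.1 and 79.9 TPM in Kpna6-/- testes.

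Hsd3b1 (chr3:98852194-98859794) was at 42.9, 52.0 and 36.6 TPM in WT, at 66.3, 61.2 and 58.6 TPM in Kpna6 ΔIBB/ΔIBB and at 37.1, 34.2 and 47.4 TPM in Kpna6-/- testes. It was the member in which WT replicate 2 was the highest of its group, and all 3 Kpna6 ΔIBB/ΔIBB libraries exceeded the other 6. Hsd3b6, the isoform that appears with adult Leydig cells (chr3:98805504-98814443), was at 31.9, 4.67 and 29.8 TPM in WT, at 27.2, 8.46 and 11.2 TPM in Kpna6 ΔIBB/ΔIBB and at 28.3, 37.6 and 33.5 TPM in Kpna6-/- testes. Within WT the highest library exceeded the lowest 6.83-fold and within Kpna6 ΔIBB/ΔIBB 3.21-fold, the widest ranges of any member in these groups, against 1.33-fold in Kpna6-/-. The Kpna6 ΔIBB/ΔIBB and Kpna6-/- libraries did not overlap.

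Cyp17a1, whose product makes the androgen precursors (chr19:46667165-46673172), was at 197, 79.3 and 199 TPM in WT, at 146, 184 and 167 TPM in Kpna6 ΔIBB/ΔIBB and at 208, 165 and 144 TPM in Kpna6-/- testes. Hsd17b3, the gene of the last enzyme before testosterone (chr13:64058266-64089230), was at 31.8, 16.2 and 25.3 TPM in WT, at 30.6, 25.1 and 25.02 TPM in Kpna6 ΔIBB/ΔIBB and at 31.02, 25.1 and 28.5 TPM in Kpna6-/- testes. For both genes the mutant libraries fell within the range of the WT libraries, except that Kpna6-/- replicate 1 exceeded WT for Cyp17a1. Insl3 (chr8:71689214-71690575), the most abundant member, was at 2571, 1778 and 1820 TPM in WT, at 2437, 2419 and 1599 TPM in Kpna6 ΔIBB/ΔIBB and at 1999, 2031 and 2056 TPM in Kpna6-/- testes. Its Kpna6-/- libraries had a CV of 1.41%, and those of Kpna6 ΔIBB/ΔIBB lay within the WT range except replicate 3, which lay below it.

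**Figure D1:**
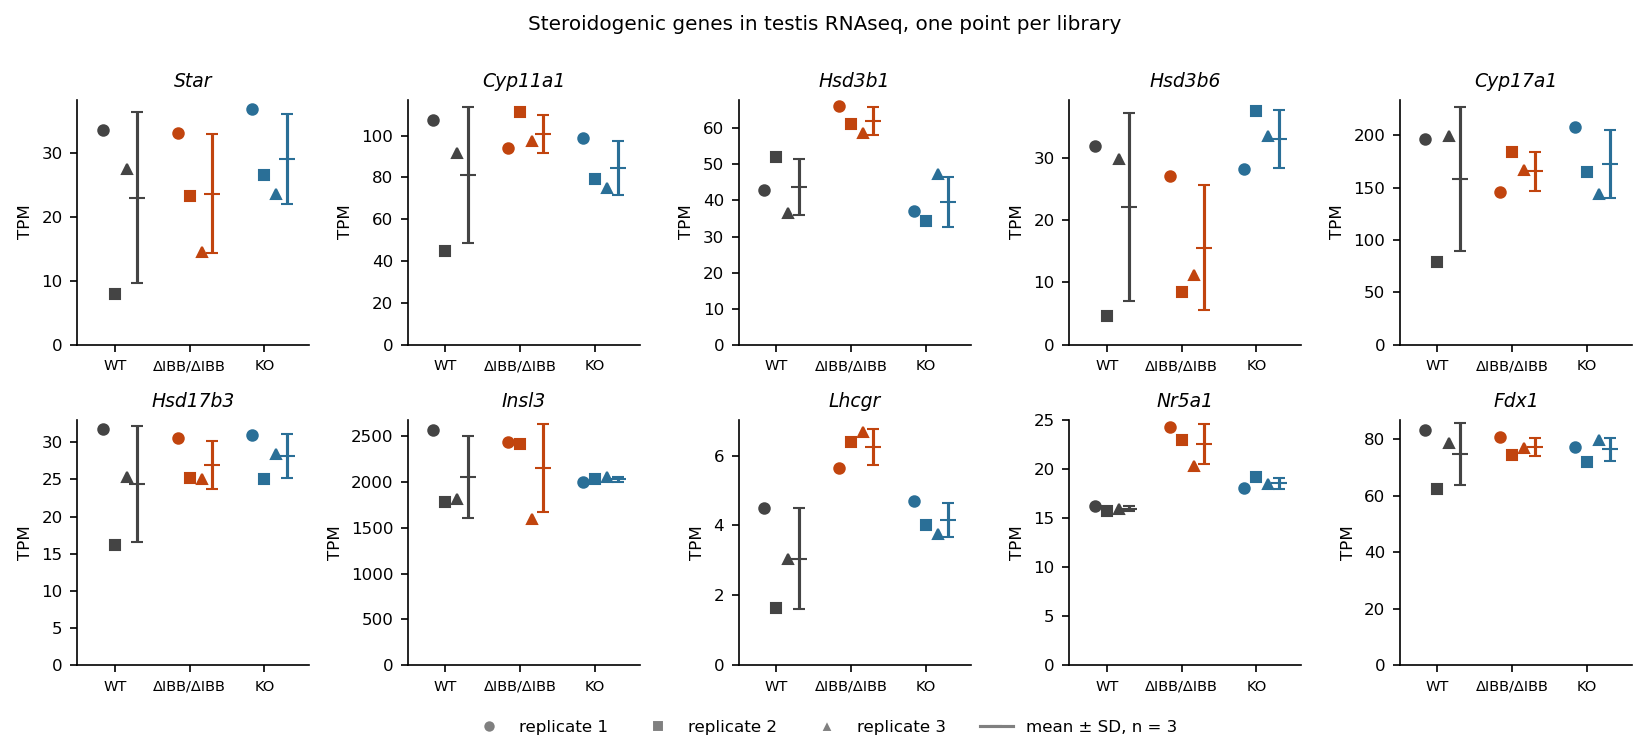
TPM (y axis, from 0) of the 10 genes in each library, with the mean ± SD of the 3 libraries of each genotype beside the points; ΔIBB/ΔIBB stands for Kpna6 ΔIBB/ΔIBB and KO for Kpna6-/-. WT replicate 2 (square) is the lowest WT point in every panel except Hsd3b1, and the Kpna6 ΔIBB/ΔIBB points lie above all others for Lhcgr, Nr5a1 and Hsd3b1.

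In WT testes the members ranked, by mean TPM ± SD (n = 3), with Insl3 first at 2056 ± 446, followed by Cyp17a1 at 158 ± 68.5 and Cyp11a1 at 81.3 ± 32.5. Fdx1 at 74.8 ± 10.997, Hsd3b1 at 43.8 ± 7.76 and Hsd17b3 at 24.4 ± 7.83 came next. Star at 22.95 ± 13.3, Hsd3b6 at 22.1 ± 15.2, Nr5a1 at 16.0 ± 0.253 and Lhcgr at 3.05 ± 1.44 closed the order. The ranges of mean ± SD overlapped for Cyp17a1 and Cyp11a1, for Cyp11a1 and Fdx1, and for neighbours among the genes from Hsd17b3 to Nr5a1. That of Hsd3b1 overlapped with those of Cyp11a1, Star and Hsd3b6. Within single libraries, however, Cyp17a1 exceeded Cyp11a1 in every WT testis, with TPM ratios of 1.835, 1.77 and 2.17. TPM levels are per transcript length as the files give it, and the models of Star and Lhcgr in the files, 2787 and 2553 bases, are shorter than the 4046 and 6828 bases of GENCODE M21.

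Much of the spread among WT libraries lay in 1 library. WT replicate 2 was the lowest of all 9 libraries for 7 of the 10 members by normalised counts, whereas it was the lowest for 13.3% of all genes tested. The members concerned were Star, Cyp11a1, Hsd3b6, Cyp17a1, Hsd17b3, Lhcgr and Fdx1. Its TPM was 16.1% of the median of the other 8 libraries for Hsd3b6, 29.5% for Star, 35.2% for Lhcgr, 45.2% for Cyp17a1 and 46.8% for Cyp11a1. The deficit was smaller for Hsd17b3 at 60.2%, Fdx1 at 80.1%, Nr5a1 at 83.3% and Insl3 at 87.0%, and Hsd3b1 stood at 115%. The receptor, the cholesterol carrier and most enzymes were thus low in this library, while the peptide hormone and the regulator were closer to the other libraries.

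Among 15574 genes with a mean above 1 on the log2 scale of CPM (counts scaled to a common library total), the gap by which WT replicate 2 fell below the lowest other library was ranked after its values had been seen. Hsd3b6 took rank 7, Cyp17a1 rank 9, Lhcgr rank 10, Cyp11a1 rank 11 and Star rank 12, with log2 gaps between 0.71 and 0.81, and Hsd17b3 took rank 64. Fdx1 took rank 795, and Nr5a1, Insl3 and Hsd3b1 were not lowest in this library. The depth of this library, 31484692 counts on genes, was the highest of the 9. Its summed Sertoli marker level was 1200 TPM against 1253 and 1323 TPM in the other WT libraries, and its summed macrophage marker level was 68.6 TPM against 64.9 and 90.0 TPM. The summed level of other Leydig cell markers was 1674 TPM, the lowest of the 9 libraries, against 2101 to 2655 TPM, and that of cofactors and reductases 178 TPM against 204 to 270 TPM. Abundant genes weigh most in such sums. Of the Leydig cell markers, Klk1b21 and Klk1b24 were lowest in this library by TPM, whereas Cst12 and Agt were not. The part of the summed levels and of depth in the low values was not tested. In whole testis a smaller number of Leydig cells and less RNA of these genes per cell cannot be told apart.

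**Figure D2:**
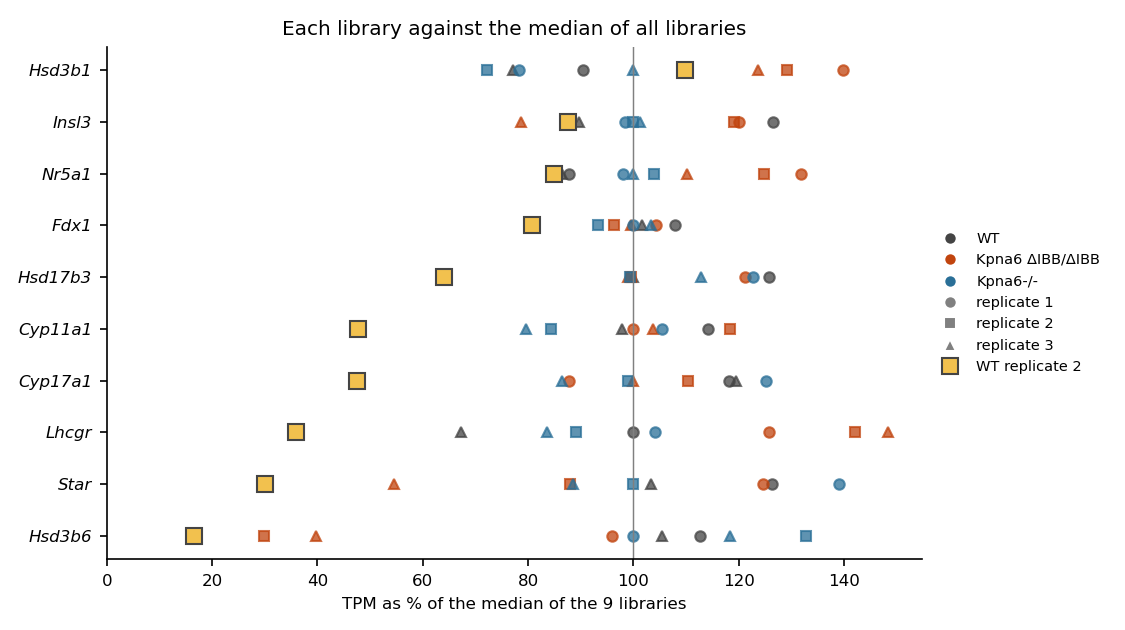
TPM of each gene in each library as a percent of the median of the 9 libraries (x axis), genes ordered by WT replicate 2 (large yellow squares). That library lies far to the left for Hsd3b6, Star, Lhcgr, Cyp17a1 and Cyp11a1, and to the right of 100% for Hsd3b1 alone.

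The first comparison asks whether loss of full-length Kpna6 throughout the testis goes with a change in Leydig cell genes. In Kpna6 ΔIBB/ΔIBB against WT testes 3 of 10 members passed the test, all higher, against 36.6% of all 18797 genes tested, of which 17.7% were higher and 18.9% lower. The share of members was thus near that of all genes. Lhcgr rose by a log2 fold change of 0.91 (SE 0.26, adjusted P = 0.0184, edgeR's quasi-likelihood test with Benjamini-Hochberg adjustment over all genes). Nr5a1 rose by 0.37 (SE 0.07, adjusted P = 0.0014) and Hsd3b1 by 0.37 (SE 0.11, adjusted P = 0.0224) on the same scale. These were also the 3 members whose normalised counts did not overlap between the groups, as was so for 49.9% of all genes.

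The remaining 7 members did not pass. Their log2 fold changes were 0.21 for Cyp11a1, 0.03 for Cyp17a1, -0.01 for Hsd17b3, -0.06 for Insl3, -0.08 for Fdx1, -0.09 for Star and -0.60 for Hsd3b6 (SE 0.57, adjusted P = 0.445). The median over the 10 members was 0.01, and that over all genes was 0.01. Without WT replicate 2 the count was 5 of 10, against 28.4% of all genes, and the median was -0.18. Cyp17a1 was then lower by a log2 fold change of -0.28 (adjusted P = 0.0368) and Hsd3b6 by -1.10 (adjusted P = 0.0384), beside the 3 genes named above. DESeq2 passed Nr5a1 only, with adjusted P = 0.0711 for Hsd3b1 and 0.0778 for Lhcgr, and leaving out WT replicate 3 likewise left Nr5a1 only. The call of Hsd3b1 was also lost without WT replicate 1 (adjusted P = 0.0587) and without Kpna6 ΔIBB/ΔIBB replicate 1 (adjusted P = 0.0854) or 2 (adjusted P = 0.051).

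Markers of other testicular cells moved in the same libraries. All 12 Sertoli cell markers were higher and all 12 spermatid markers lower in Kpna6 ΔIBB/ΔIBB testes, where 17.7% of all genes were higher and 18.9% lower. The summed Sertoli level ran from 2007 to 2380 TPM against 1200 to 1323 TPM in WT. The summed spermatid level ran from 56257 to 64386 TPM against 67511 to 77459 TPM. The part of these shifts in the values of Nr5a1, Lhcgr and Hsd3b1 was not tested. The epididymal markers that marked Kpna6 ΔIBB/ΔIBB replicate 3 were at 6.22 to 20.1 TPM in the 8 other libraries. Without this replicate the same 3 members passed, against 33.5% of all genes.

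The comparison of Kpna6-/- with WT testes, which share the WT libraries of the first comparison, addresses animals that keep the protein in germ cells. Here 0 of 10 members passed edgeR's test, against 1.60% of all 18681 genes, and 1 member, Nr5a1, had an unadjusted P-value below 0.05. Its log2 fold change was 0.23 (SE 0.05, adjusted P = 0.0545), and the 3 Kpna6-/- libraries lay above the 3 WT libraries. Of all genes 20.0% showed no overlap, in either direction. DESeq2 passed 1 member, again Nr5a1 (adjusted P = 0.04), and limma on log2 TPM values passed none.

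The other log2 fold changes were 0.61 for Hsd3b6, 0.46 for Lhcgr, 0.35 for Star, 0.22 for Hsd17b3, 0.20 for Cyp17a1, 0.10 for Cyp11a1, 0.04 for Fdx1, -0.01 for Insl3 and -0.15 for Hsd3b1. Their SE ran up to 0.42 for Hsd3b6, and 8 of the 10 were above 0. The median was 0.21, and without WT replicate 2 it was -0.03. Without WT replicate 1, which was the highest of the 9 libraries for 4 members, 3 members passed, against 2.74% of all genes. They were Insl3 at 0.19 (adjusted P = 0.0162), Lhcgr at 0.87 (adjusted P = 0.0357) and Nr5a1 at 0.25 (adjusted P = 0.0417).

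**Figure D3:**
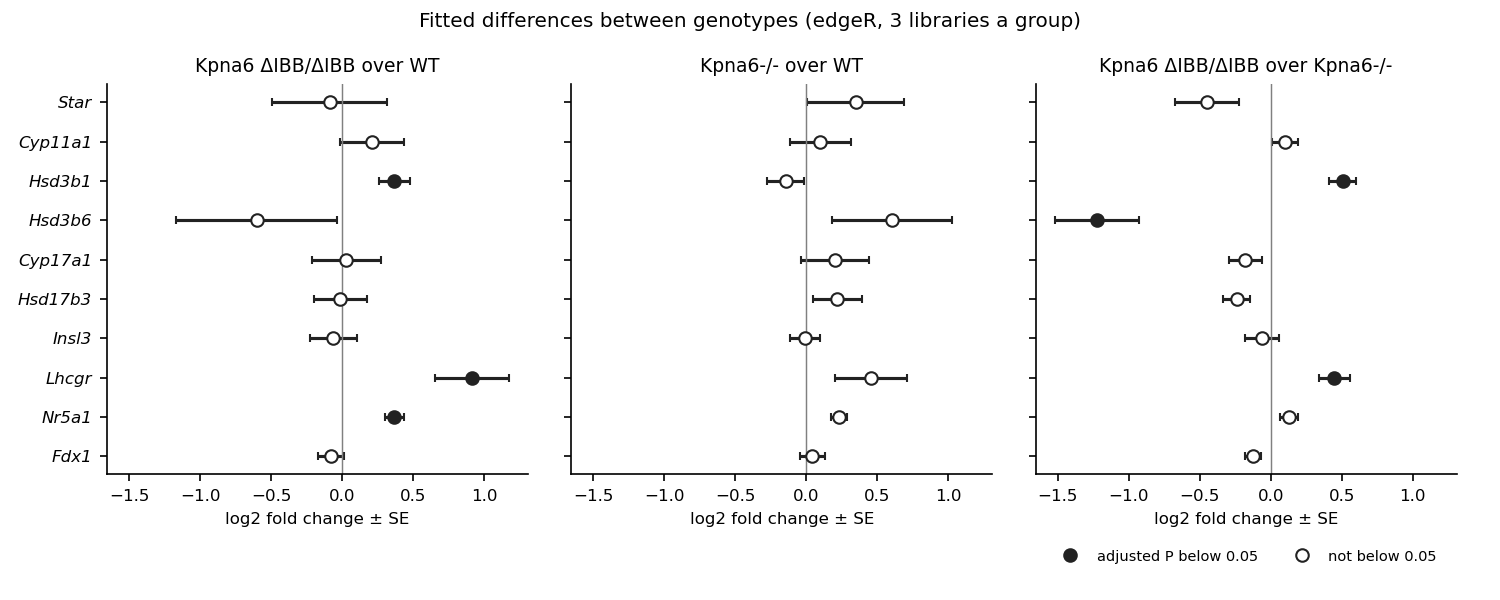
Log2 fold change ± SE of each gene in the 3 comparisons, from edgeR, with filled points for an adjusted P-value below 0.05. Lhcgr, Nr5a1 and Hsd3b1 are filled in the first panel, no gene in the second, and Hsd3b1, Hsd3b6 and Lhcgr in the third, with Hsd3b6 on the other side of 0.

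The direct comparison of Kpna6 ΔIBB/ΔIBB with Kpna6-/- testes does not use the WT libraries. Of the 10 members 3 passed, against 30.3% of all 18752 genes. The first line held more Hsd3b1 than the second, by a log2 fold change of 0.51 (SE 0.10, adjusted P = 0.00211) and Lhcgr by 0.45 (SE 0.11, adjusted P = 0.00844), where 13.5% of all genes were higher. Hsd3b6 was lower by -1.23 (SE 0.30, adjusted P = 0.00836), where 16.8% of all genes were lower. Each of the 3 showed no overlap between the lines, as did 44.4% of all genes. The summed Sertoli level was 2007 to 2380 TPM in the first and 1470 to 1547 TPM in the second line, and its part in these values was not tested.

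Star at -0.45 (adjusted P = 0.165), Hsd17b3 at -0.24 (adjusted P = 0.0722), Cyp17a1 at -0.18, Fdx1 at -0.13, Insl3 at -0.06, Cyp11a1 at 0.10 and Nr5a1 at 0.13 did not pass. For Nr5a1 the adjusted P-value was 0.135. Without Kpna6 ΔIBB/ΔIBB replicate 3, the library with epididymal markers, Nr5a1 passed at 0.19 (adjusted P = 0.0174) and Insl3 at 0.12 (adjusted P = 0.0159), and Nr5a1 also passed with library size alone (adjusted P = 0.0157) and with limma on log2(TPM + 1) (adjusted P = 0.0399). Without Kpna6 ΔIBB/ΔIBB replicate 1, Star passed at -0.76 (adjusted P = 0.0183) and Hsd17b3 at -0.33 (adjusted P = 0.0232). Hsd17b3 passed without Kpna6-/- replicate 2 as well (adjusted P = 0.0287), and Cyp11a1 without Kpna6-/- replicate 1 (adjusted P = 0.0365). The call of Hsd3b1 held under every alternative that kept the genes apart. That of Hsd3b6 was lost with DESeq2 (adjusted P = 0.0669), in a fit of all 9 libraries (adjusted P = 0.0899) and with limma on log2(TPM + 1) and log2(TPM + 0.1) (adjusted P = 0.0501 and 0.0504), and that of Lhcgr in the fit of all 9 libraries (adjusted P = 0.173).

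The opposite movement of the HSD3B genes could be read within single libraries, where no scaling between libraries enters. The ratio of Hsd3b6 to Hsd3b1 TPM was 0.743, 0.0898 and 0.815 in WT, 0.409, 0.138 and 0.192 in Kpna6 ΔIBB/ΔIBB and 0.762, 1.10 and 0.706 in Kpna6-/- testes. The Kpna6 ΔIBB/ΔIBB libraries lay below all Kpna6-/- libraries and below WT replicates 1 and 3, and WT replicate 2 had the lowest ratio of all 9. When the counts of the Hsd3b paralogues were summed before the test, the sum differed by a log2 fold change of 0.11 (adjusted P = 0.472) in Kpna6 ΔIBB/ΔIBB against WT, 0.12 (adjusted P = 0.576) in Kpna6-/- against WT and -0.02 (adjusted P = 0.904) between the lines. The isoforms therefore differed between the lines, whereas for their sum no difference was detected.

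**Figure D4:**
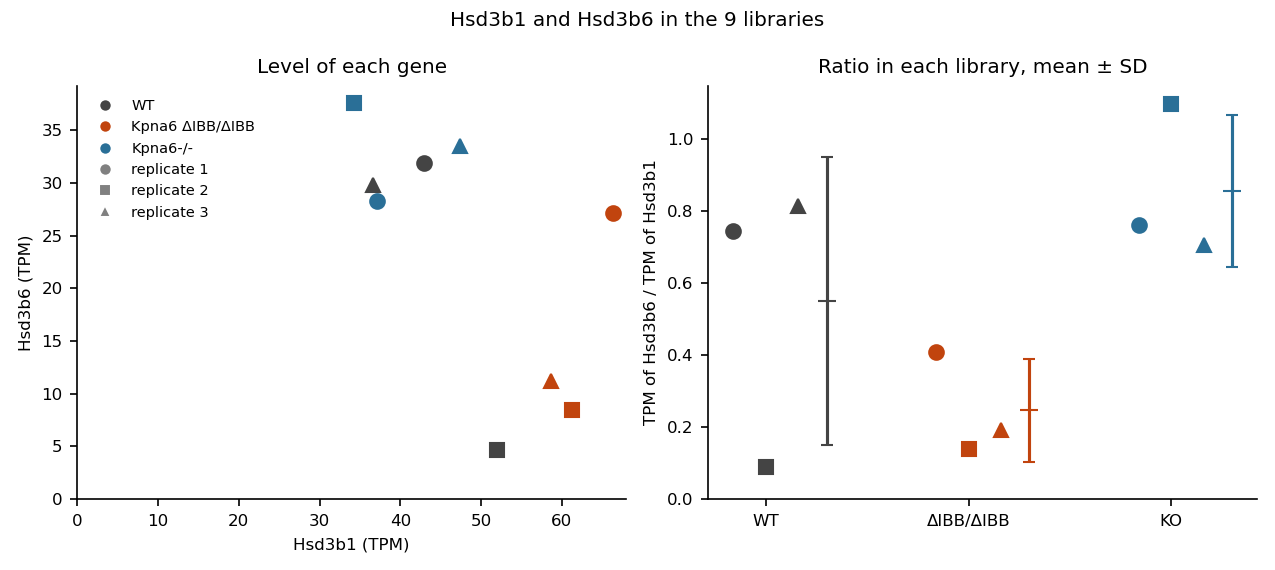
Left, TPM of Hsd3b6 (y axis) against Hsd3b1 (x axis) in the 9 libraries; right, the ratio of the pair in each library with the mean ± SD of each genotype (KO stands for Kpna6-/-). The 3 Kpna6 ΔIBB/ΔIBB libraries have ratios from 0.138 to 0.409 and the Kpna6-/- libraries from 0.706 to 1.10, and WT replicate 2 lies at 0.0898.

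The ratio of Cyp17a1 to Cyp11a1, consecutive P450 enzymes of the pathway, was steadier. It was 1.835, 1.77 and 2.17 in WT, 1.56, 1.65 and 1.71 in Kpna6 ΔIBB/ΔIBB and 2.105, 2.08 and 1.93 in Kpna6-/- testes, so that WT replicate 2, low in both genes, kept a ratio near that of WT replicate 1. All Kpna6 ΔIBB/ΔIBB libraries lay below all others. The ratio of Hsd17b3 to Cyp11a1 ranged from 0.226 to 0.381 over the 9 libraries, and the groups overlapped. Insl3 to Star was 224 in WT replicate 2 and 54.2 to 111 in the 8 other libraries.

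Whether the members moved together was described by Pearson correlations of log2 normalised CPM across the 9 libraries, which share their tissue and have similar depth; no P-value is given. Of the 45 pairs of members 37 had a positive r, with a median r of 0.48, whereas pairs of all genes tested had a median of 0. After each gene was centred on the mean of its group, 35 pairs were positive and the median was 0.65. The closest of the centred pairs were Cyp11a1 with Cyp17a1 (r = 0.99, Spearman's rho 0.98), Hsd17b3 with Fdx1 (r = 0.96, rho 0.87) and Cyp11a1 with Lhcgr (r = 0.96, rho 0.93). With all 9 libraries the centred values of Hsd3b1 were negative with 7 of the 9 other members, down to -0.70 with Cyp17a1, and positive with Insl3 and Nr5a1.

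Part of this rested on WT replicate 2. Without it, an alternative chosen after the data had been seen, the pooled pairs gave 27 positive values with a median of 0.13, and the centred pairs 36 positive values with a median of 0.32. Among the centred pairs, Cyp11a1 and Cyp17a1 then had r = 0.95, Hsd17b3 and Fdx1 0.89, and Cyp11a1 and Lhcgr 0.83. Cyp11a1 and Hsd3b6 went from 0.70 to -0.48, and Cyp17a1 and Hsd3b6 from 0.67 to -0.58. Cyp11a1, Cyp17a1 and Lhcgr thus varied together within groups with and without the low library, whereas signs for both HSD3B genes depended on it. Without it Hsd3b1 had a negative r with Cyp11a1 and Cyp17a1 only, and its r went from -0.24 to 0.85 with Fdx1 and from -0.25 to 0.65 with Hsd17b3.

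Transcripts of the members annotated with a retained intron were measured as well. Those of Cyp17a1 summed to 30.6 TPM in WT replicate 3 and to 2.32 to 9.26 TPM in the other libraries, and that of Cyp11a1 was at 5.34 TPM in WT replicate 3 and at 0.663 to 2.40 TPM elsewhere. The retained-intron transcript of Nr5a1 was at 1.42, 1.36 and 1.13 TPM in Kpna6 ΔIBB/ΔIBB testes and between 0.640 and 0.943 TPM in the 6 other libraries. When protein-coding transcripts alone were summed, the same members passed in each comparison.

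The genes most like the members, by r with the mean of their standardised profiles over the 9 libraries, were Cd53 (r = 0.98), a tetraspanin of leukocytes, Crot (0.95), a carnitine acyltransferase of peroxisomes, Ier3 (0.95), Cd59a (0.95) and Tcirg1 (0.94), a subunit of a proton pump. Cd53 was at 0.345 TPM in WT replicate 2 and at 0.879 to 1.47 TPM elsewhere. Without that library the r of the 5 genes was between 0.68 and 0.87.

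Partners of the steroidogenic enzymes come next. Of 11 tested cofactors, reductases and cholesterol carriers 6 rose and 1, Acbd3, fell against WT in Kpna6 ΔIBB/ΔIBB testes, where 17.7% of all genes were higher and 18.9% lower, with a median log2 fold change of 0.35 against 0.01 for the 10 members and 0.01 for all genes. Tspo, the outer mitochondrial membrane protein that binds cholesterol, rose from 12.3 ± 1.97 to 22.1 ± 4.34 TPM (log2 fold change 0.66, adjusted P = 0.00993). Such fold changes come from normalised counts and differ from the ratio of the TPM means. Over all genes the median log2 fold change in this comparison was 0.01 with edgeR and 0.12 with limma on log2(TPM + 0.1). H6pd, which supplies reduced cofactor in the endoplasmic reticulum, rose by 0.57, and Cyb5r3 and Cyb5a, the reductase and carrier of cytochrome b5 electrons that assist CYP17A1, by 0.47 each. In Kpna6-/- against WT 0 of 11 passed edgeR's test, with a median of 0.15. In whole testis the cells behind the changes of these genes, and of the lists that follow, were not told apart.

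Of 16 genes of cholesterol supply 9 rose and 2 fell in Kpna6 ΔIBB/ΔIBB testes, against the same shares of all genes, with a median of 0.31, and 0 of 16 passed edgeR's test in Kpna6-/-, with a median of 0.08. The genes that fell were Lipe, the hormone-sensitive lipase gene, and Sqle. Lipa, the lysosomal lipase that frees cholesterol, rose from 3.15 ± 0.331 to 6.15 ± 0.227 TPM (log2 fold change 0.84). Npc2, which exports cholesterol from lysosomes, rose from 19.9 ± 1.34 to 33.7 ± 2.33 TPM (log2 fold change 0.64). Vdac1 and Osbpl5 rose by log2 fold changes of 0.73 and 0.67. Of 17 other enzymes of steroid metabolism 6 rose and 1 fell in Kpna6 ΔIBB/ΔIBB testes, against the same shares of all genes, with a median of 0.20. Hsd17b11 rose by 0.76, Hsd3b7 by 0.66 and Hsd17b10 by 0.65. Sult1e1, the estrogen sulfotransferase, fell by 0.51 on the log2 scale in Kpna6 ΔIBB/ΔIBB (adjusted P = 0.0385) and by 0.77 in Kpna6-/- testes (adjusted P = 0.0102), where it was the 1 gene of 16 tested in this list that passed. Of all genes 1.60% passed in Kpna6-/- against WT. The 3 tested adrenal type enzymes did not pass in any comparison, and their summed level with Mc2r was between 1.81 and 3.68 TPM.

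Regulators of Leydig cells gave 15 higher and 2 lower of 29 in Kpna6 ΔIBB/ΔIBB against WT, with a median of 0.34. Of all genes 17.7% were higher and 18.9% lower in this comparison. The lower genes were Crem and Nr4a1, transcription factor genes that respond to cAMP. Crem had a mean of 241 TPM over the 9 libraries, and the study located CREM protein in round spermatids. Spermatid markers fell in the same testes, and their part in the fall of Crem was not tested. Nr0b1, a nuclear receptor that represses NR5A1 targets, rose from 12.9 ± 1.08 to 21.5 ± 1.73 TPM (log2 fold change 0.61). Pdgfra, needed for Leydig cell development, rose by 0.56. Between Kpna6-/- and WT 1, the G protein gene Gnas (0.27, adjusted P = 0.0217), was higher and 1, the hedgehog receptor gene Ptch1 (-0.41, adjusted P = 0.0391), was lower. There 0.889% of all genes were higher and 0.712% lower. Of 17 other Leydig cell markers 3 rose and 1 fell in Kpna6 ΔIBB/ΔIBB, with a median of 0.11, and 2, Bex4 and Cst12, rose in Kpna6-/-. The count that rose in Kpna6 ΔIBB/ΔIBB was near the share of all genes. Agt, the angiotensinogen gene, fell by 1.02 in Kpna6 ΔIBB/ΔIBB (adjusted P = 0.00391), and Cst12, a cystatin gene, rose by 0.96 and in Kpna6-/- by 0.42. The Sertoli cell list had medians of 0.62 and 0.27 in these lines, and its part in the values of Cst12 was not tested.

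Between the lines this last list went both ways, with 4 higher and 6 lower of 17 in Kpna6 ΔIBB/ΔIBB and a median of -0.15. Of all genes 13.5% were higher and 16.8% lower between the lines. The kallikrein genes Klk1b21 (-1.17, adjusted P = 0.000428) and Klk1b24 (-0.82, adjusted P = 0.00465) were lower, as were Agt (-0.98) and, among the members, Hsd3b6. Cst12 (0.52) was among the higher genes of the list, and the members Hsd3b1 and Lhcgr were higher as well. For the other lists the counts between the lines were 4 higher and 1 lower of 11 cofactors, 4 and 0 of 15 other enzymes, 17 and 1 of 29 regulators, and 9 and 2 of 16 supply genes. Acbd3, Crem, Gnas, Nr4a1, Bex4, Lipe and Sqle were named after their values had been seen. Of 25 other enzymes 22 were listed in the files and of 12 cofactors 11.

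Among markers of neighbouring cells, 4 of 12 macrophage markers rose and 0 fell in Kpna6 ΔIBB/ΔIBB against WT, with a median of 0.37 and Mrc1 at 0.53. Of all genes 17.7% rose and 18.9% fell in this comparison. Of 12 peritubular and vascular markers 4 rose, Acta2 of smooth muscle by 0.64, and 1, the endothelial gene Vwf, fell by 0.49. The summed macrophage level was 98.0 to 112 TPM in Kpna6 ΔIBB/ΔIBB, 64.9 to 90.0 TPM in WT and 73.9 to 92.2 TPM in Kpna6-/- testes. Of the Sertoli cell markers 4 of 12 rose in Kpna6-/-, where 0.889% of all genes rose, Inha by 0.62 and Amhr2 by 0.43. In Kpna6 ΔIBB/ΔIBB Amh rose by 1.78 and Fshr by 1.35. The spermatid gene Tnp1 fell by 0.59 in Kpna6 ΔIBB/ΔIBB, and 0 of 12 spermatid, macrophage or peritubular and vascular markers passed edgeR's test in Kpna6-/-. Of 12 epididymal markers 3 could be tested, and 2, Crisp1 and Spink8, were higher in Kpna6 ΔIBB/ΔIBB, with SD above the mean of the group.

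**Figure D5:**
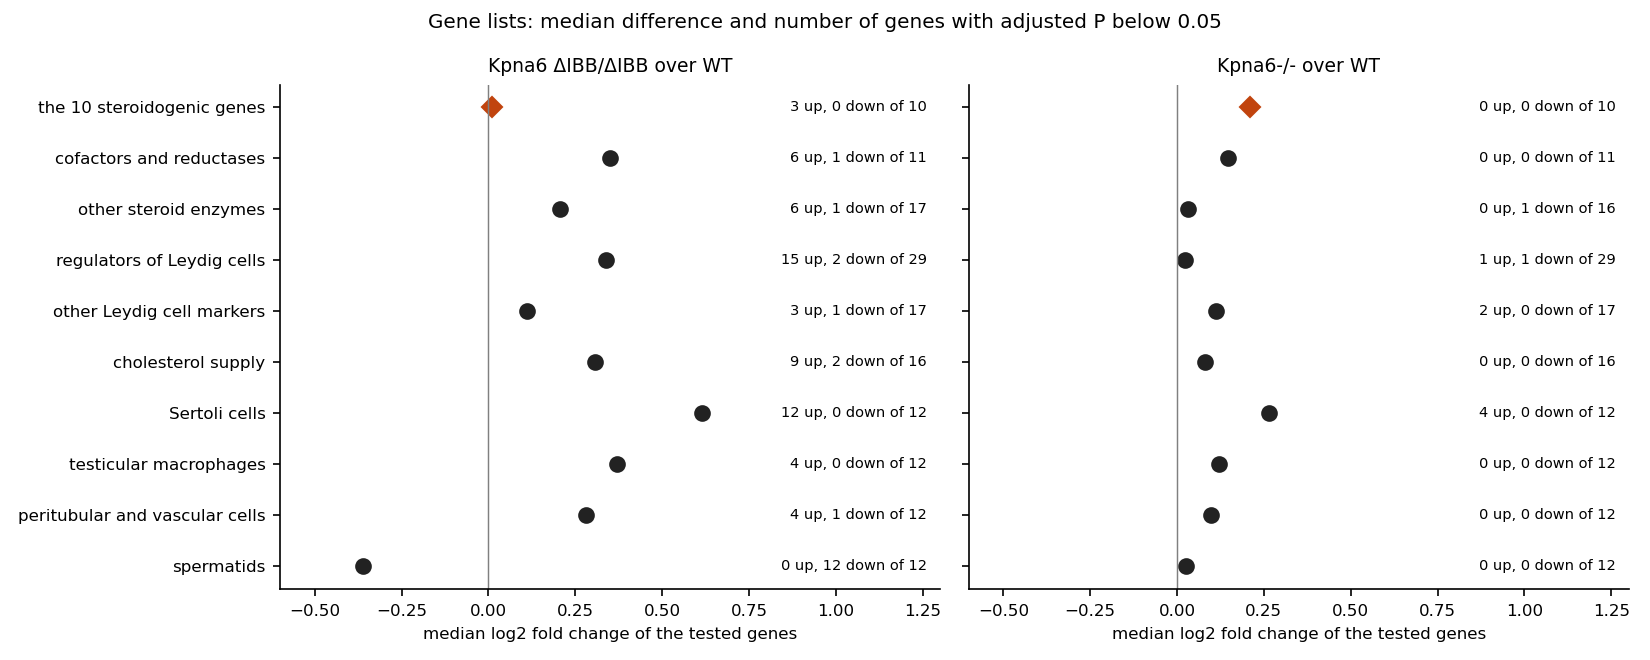
Median log2 fold change (x axis) of the tested genes of each list but the adrenal and epididymal ones, in either mutant line against WT, with the number of genes that rose or fell at an adjusted P-value below 0.05 at the right. The 10 steroidogenic genes (diamond) have a median of 0.01 in Kpna6 ΔIBB/ΔIBB and of 0.21 in Kpna6-/- testes, and the Sertoli cell and spermatid lists lie at 0.62 and -0.36 in Kpna6 ΔIBB/ΔIBB.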

How the data were processed

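Poly(A) RNA of 9 whole testes was sequenced. The authors deposited estimated counts for 96626 transcripts in every library, unnormalized between libraries, as given by kallisto (version 0.45 in the submitters' processing notes, build mm10). TPM values from the same kallisto runs, scaled within each library, were deposited beside them. Which transcript release they used is not given in the sources used here. By identifier, 95301 transcripts matched GENCODE M21 (GRCm38) and fell into 32035 genes, and the other 1325 were not used. Counts and TPM were added up over the transcripts of a gene.

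Summed counts were turned into whole numbers. The main test was the quasi-likelihood test in edgeR 4.0.16 (R 4.3.3) after filterByExpr and TMM scaling, on the 6 libraries compared, with Benjamini-Hochberg adjustment over all genes and a threshold of 0.05. The study used sleuth, which was not used here. SE is the absolute log2 fold change divided by the square root of F. Correlations used log2(normalised CPM + 0.5). Words of 31 bases, the default length of kallisto, were compared on both strands among the annotated transcripts. The test was checked on simulated data that gave all genes the same dispersion and held no outlying library. That check therefore does not cover the spread that WT replicate 2 brings to the members. Depth was 24859751 to 31484692 counts on genes per library.

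Alternatives were DESeq2 1.42.0, its size factors in edgeR, library size alone, no filter, a filter of 5 counts in a share of 0.47 of the libraries, all 9 libraries in one model, the replicate number as a block, length-scaled TPM, limma 3.58.1 on log2(TPM + 1) or log2(TPM + 0.1), protein-coding transcripts alone, summed Hsd3b paralogues, and each library left out. The correlations without WT replicate 2, the word counts and the ranking of gaps were added after the data had been seen. The exact permutation test of 3 against 3 libraries has a smallest P-value of 0.1. Named are the 10 members, Kpna6, paralogues and overlapping genes, the 5 genes most like the members, and from each list up to 4 genes with the largest absolute log2 fold change that had an adjusted P-value under 0.05 in some comparison and a group mean reaching 1 TPM. The values of 1 gene that met this rule are not reported here. Members and lists were chosen with earlier results of these data known. Python 3.11.15, pandas 2.3.3, numpy 2.4.6 and matplotlib 3.10.9 were used.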

Additional observations from a re-analysis of the deposited data

Results flagged for a closer look

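For 3 members the effects of the mutant lines differed from each other by the direct test of the lines, edgeR's quasi-likelihood test with Benjamini-Hochberg adjustment. The effect of Kpna6 ΔIBB/ΔIBB exceeded that of Kpna6-/- by a log2 fold change of 0.51 for Hsd3b1 (adjusted P = 0.00211) and of 0.45 for Lhcgr (adjusted P = 0.00844). For Hsd3b6 it was lower, at -1.23 (adjusted P = 0.00836). For each gene all 3 libraries of one line lay on one side of all 3 libraries of the other, as for 44.4% of all genes. Of all genes 30.3% were called between the lines, near the share of the 10 members. The call of Hsd3b6 was lost with DESeq2, with limma on log2 TPM values and in one model of all 9 libraries. That of Lhcgr was lost in the model of all 9 libraries. With 3 libraries per group no test for a single outlying library was made.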

How the results depend on the processing

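Calls among the 10 members rested on few libraries. Leaving out each library in turn gave 1 to 5 called members in Kpna6 ΔIBB/ΔIBB against WT, 0 to 3 in Kpna6-/- against WT and 3 to 5 between the lines, against 3, 0 and 3 with all libraries. With all libraries 36.6%, 1.60% and 30.3% of all genes were called, and the percentages that follow are such shares in each fit. The 5 in the first comparison came without WT replicate 2 (28.4%) and the 1 without WT replicate 3 (29.5%). The 3 in the second came without WT replicate 1 (2.74%), and the 5 between the lines without Kpna6 ΔIBB/ΔIBB replicate 1 (23.6%) or 3 (30.3%). DESeq2 called 1 member in Kpna6 ΔIBB/ΔIBB (33.2%) and 1 in Kpna6-/- against WT (2.49%). No filter called 1 in Kpna6-/- against WT (2.37%), and all 9 libraries in one model called 1 between the lines (28.4%). Of all genes in Kpna6-/- against WT, 299 were called, 466 with DESeq2, 624 without a filter, 71 with length-scaled TPM, 32 and 33 with limma on log2(TPM + 1) and log2(TPM + 0.1), and 92 to 518 when a library was left out, the extremes without Kpna6-/- replicate 1 and WT replicate 1. The cause was not tested. Each member had at least 95 counts in every library.

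The labels do not say whether replicate numbers pair the samples, and the values here do not settle it. Over all genes, deviations of same-numbered libraries of the groups compared had r between -0.045 and 0.086, none above 0.1. Of 9 libraries 5 correlated best with a library of their own number. The replicate block called 5 members between the lines, against 32.2% of all genes, adding Star and Hsd17b3. It gave log2 fold changes of 0.027 for Star and 0.027 for Hsd17b3 in Kpna6 ΔIBB/ΔIBB against WT and of 0.013 for Insl3 in Kpna6-/- against WT. It changed no other call of a member.

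Signs turned only for values that had no call with all libraries, except Hsd3b1 between the lines, which was at -0.02 with paralogues summed. Library size alone moved the median log2 fold change of all genes in Kpna6 ΔIBB/ΔIBB against WT from 0.01 to 0.11 and limma on log2(TPM + 0.1) to 0.12, and between the lines these gave 0.10 and 0.14. In Kpna6 ΔIBB/ΔIBB against WT, library size alone gave 0.007 for Star, 0.085 for Hsd17b3, 0.036 for Insl3 and 0.022 for Fdx1. Limma with 1 and with 0.1 added gave 0.181 and 0.201 for Star, 0.18 and 0.188 for Hsd17b3, 0.06 both times for Insl3, and 0.058 and 0.059 for Fdx1. Length-scaled TPM gave -0.045 for Cyp17a1 and 0.027 for Hsd17b3, and paralogues summed gave 0.109 for Hsd3b6. In Kpna6-/- against WT, limma gave 0.002 both times for Insl3, and paralogues summed gave 0.118 for Hsd3b1. Between the lines, library size alone gave 0.038 and limma 0.059 for Insl3, and limma 0.017 and 0.018 for Fdx1.

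Leaving out each library in turn gave these log2 ranges in Kpna6 ΔIBB/ΔIBB against WT: -0.505 to 0.305 for Star, -0.08 to 0.481 for Cyp11a1, -0.282 to 0.275 for Cyp17a1, -0.233 to 0.237 for Hsd17b3, -0.158 to 0.13 for Insl3 and -0.193 to 0.013 for Fdx1. In Kpna6-/- against WT they were -0.06 to 0.752 for Star, -0.184 to 0.376 for Cyp11a1, -0.298 to 0.008 for Hsd3b1, -0.106 to 0.45 for Cyp17a1, -0.098 to 0.187 for Insl3 and -0.067 to 0.135 for Fdx1. Between the lines Insl3 ran from -0.155 to 0.117. Of these turned values 3 were called: Cyp17a1 without WT replicate 2, Insl3 in Kpna6-/- against WT without WT replicate 1, and Insl3 between the lines without Kpna6 ΔIBB/ΔIBB replicate 3. Nr5a1 in Kpna6 ΔIBB/ΔIBB against WT was called in all 17 alternatives, and Hsd3b1 between the lines in all 17 that kept the paralogues apart. With TPM in place of CPM, 37 of the 45 member pairs centred by group had a positive r, without WT replicate 1 32, and without WT replicate 2 36, against 35.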

Other observations

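WT replicate 2 was also low in genes outside the steroid pathway. The largest log2 gaps below the lowest of the 8 other libraries, picked after their values had been seen, were those of Gm20772 at 3.02, Gm21573 at 2.72, Ass1 at 1.64, Aqp2 at 1.18, Rhbg at 0.93 and Mrap at 0.92. Ass1 encodes a urea cycle enzyme, Aqp2 a water channel and Mrap a partner of melanocortin receptors. Hsd3b6 followed with a gap of 0.81.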
